A study of Mus musculus with 6 samples.

Results

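The miR-290 to miR-295 cluster is a group of microRNAs that mouse embryonic stem cells make in abundance. Its members were taken as the mouse probes named miR-290, miR-291a, miR-291b, miR-292, miR-293, miR-294 or miR-295 with any arm ending, which gave 7 of 334 mouse microRNA probes. They are mmu-miR-290, mmu-miR-291a-5p, mmu-miR-292-5p, mmu-miR-291b-5p, mmu-miR-293, mmu-miR-294 and mmu-miR-295, and are written without the prefix from here. A filter on dim probes left out 40 of the 334, and all 7 members were among those tested.

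The arrays measured microRNAs in mouse embryoid bodies collected on day 7. All groups came from mouse embryonic stem cells of strain 129S7/SvEv Brd-Hprt b-m2 with human BRCA1, and feeder cells had been removed on gelatin. The RQ group carried BRCA1 with the missense change R1699Q, the MI group the missense change M1652I, and the WT group wild-type BRCA1, with 2 arrays in each group. BRCA1 is a DNA repair protein, and both changes lie in its C-terminal BRCT repeats. The labels give 2 biological replicates per group. The state of the mouse Brca1 gene and the number of stem cell clones per group are not given in the sources used here. Nor is it given whether the replicates came from separate cultures, so p-values may measure little beyond technical spread. Cy3 carried each group's own RNA. Cy5 carried RNA that the labels describe as wild-type embryoid body, on all 6 arrays and with no dye swap.

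A microRNA is cut as a short RNA from either side (the 5p or 3p arm) of a hairpin in a longer transcript, and it lowers the output of messenger RNAs that pair with its seed, bases 2 to 8. The miR-290 cluster is transcribed as 1 primary RNA in mouse embryonic stem cells and declines as they differentiate. Members with an AAGUGC seed are known to speed the stem cells' passage from the G1 to the S phase of the cell cycle.

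The 7 hairpins lie in 2216 bases of the plus strand at chr7:3218626-3220841 (GRCm38.p6). All 7 probes matched a mature microRNA in RefSeq. The 4 probes nearest the 5′ end of the cluster read 5p arms and the other 3 read 3p arms. The mature sequences are shown because the members divide by arm and by seed in what follows. They are given 5′ to 3′ from RefSeq (GRCm38.p6), in the order of the hairpins, with the seed in capitals.
mmu-miR-290: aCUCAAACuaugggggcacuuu
mmu-miR-291a-5p: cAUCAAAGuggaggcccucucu
mmu-miR-292-5p: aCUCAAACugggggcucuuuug
mmu-miR-291b-5p: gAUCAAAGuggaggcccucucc
mmu-miR-293: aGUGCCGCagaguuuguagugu
mmu-miR-294: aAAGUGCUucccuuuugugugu
mmu-miR-295: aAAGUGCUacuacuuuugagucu

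There are 4 seeds among the 7. miR-290 and miR-292-5p share CUCAAAC, miR-291a-5p and miR-291b-5p share AUCAAAG, and miR-294 and miR-295 share AAGUGCU. miR-293 stands alone with GUGCCGC. miR-291a-5p and miR-291b-5p share a run of 20 bases with an edit distance of 2, so that their probes may share signal and are uncertain as separate measurements. Every other pair of members shares a run of 9 bases or fewer. The RefSeq entry for miR-290 is named mmu-miR-290a-5p and that for miR-292-5p mmu-miR-292a-5p. The miR-290 and miR-291b-5p probes match 21 of the 22 bases of their entry, and the other 5 match their whole entry.

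The Cy5 channel went against its label. On the WT arrays both dyes carry, per the labels, RNA of wild-type embryoid bodies, yet all 7 members were bright in Cy3 and dim in Cy5. In Cy3, all 4 spots of every member were well above background on each array, and none was saturated. The net Cy5 signal of the members, which is the mean spot intensity minus local background, lay between 8.48 and 53.0 on all 6 arrays. Negative control spots had mean net Cy5 signals between 11.5 and 26.0. Therefore no ratio of Cy3 over Cy5 is read here as a level against wild type. Between groups, differences are given with the ratio and also with Cy3 alone.

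As a check of the labelled tissue, the pluripotency microRNAs were present in Cy3 in all groups. The 7 members made up 13.1% and 12.8% of the net Cy3 signal of all tested probes on the RQ arrays, 11.8% and 13.6% on the MI arrays, and 17.9% and 11.9% on the WT arrays. In Cy5 the share was 0.0369% to 0.0628%. The summed net Cy3 signal of the 5 blood markers, which include the erythroid miR-451, was 1183 to 1235 on the RQ arrays, 972.4 to 1101 on the MI arrays and 998.6 to 1043 on the WT arrays, with 1 of the 5 above background in Cy3 on no array. The same 5 summed to 70955 to 72617 in Cy5. In bulk RNA, fewer cells of a type and less RNA per cell cannot be told apart.

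**Figure D1:**
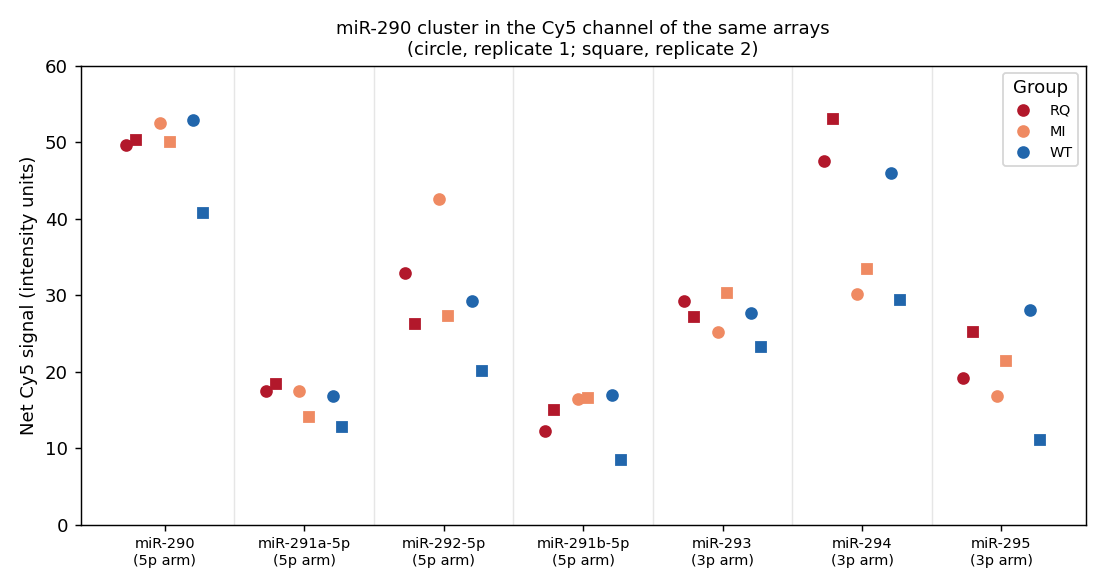
Net Cy5 signal (intensity units, linear axis from 0) of the 7 members on each of the 6 arrays, in the order RQ, MI and WT within a member. No member exceeded 53.0 on any array, while the same spots reached 32466 in Cy3.

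The 5p members are described first. miR-290, the first hairpin of the cluster, had net Cy3 signals of 9825 and 9418 on the RQ arrays and 7959 and 9030.5 on the MI arrays, against 7392 and 6834 on the WT arrays. miR-292-5p, with the same seed, had 6799.5 and 6582 in RQ and 4988 and 5598 in MI, against 4778 and 4641 in WT. For both, the RQ and MI arrays were each above both WT arrays in net signal, which is not scaled for the brightness of the array. The share of all microRNAs with that order in net signal was not counted. After division by the array median, 46.9% of tested microRNAs were higher in RQ than in WT without overlap, and 54.4% in MI.

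miR-291a-5p had net Cy3 signals of 1606 and 1496 in RQ and 1215.5 and 1448.5 in MI, against 1450.5 and 1015 in WT. miR-291b-5p had 1229 and 1126 in RQ and 867.2 and 1144 in MI, against 1046 and 731 in WT. These sister 5p arms with the AUCAAAG seed overlapped between MI and WT, while the RQ arrays were above the WT arrays for both. The same limit holds, since 46.9% of tested microRNAs were higher in RQ without overlap after division by the array median.

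Among the 3p members, miR-293 had net Cy3 signals of 10792 and 10215 in RQ and 7028 and 9395 in MI, against 12776 and 7528.5 in WT. miR-294, one of the pair with the AAGUGCU seed, had 26891 and 25594 in RQ and 18617.5 and 25018 in MI, against 32465.5 and 18568 in WT. miR-295, the other of that pair and the last hairpin, had 15067 and 14520 in RQ and 11392.5 and 14593 in MI, against 26316 and 11248.5 in WT. For each of the 3, both mutants' 4 arrays except MI replicate 1 of miR-293 fell inside the range of the WT arrays, so that the groups overlapped.

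**Figure D2:**
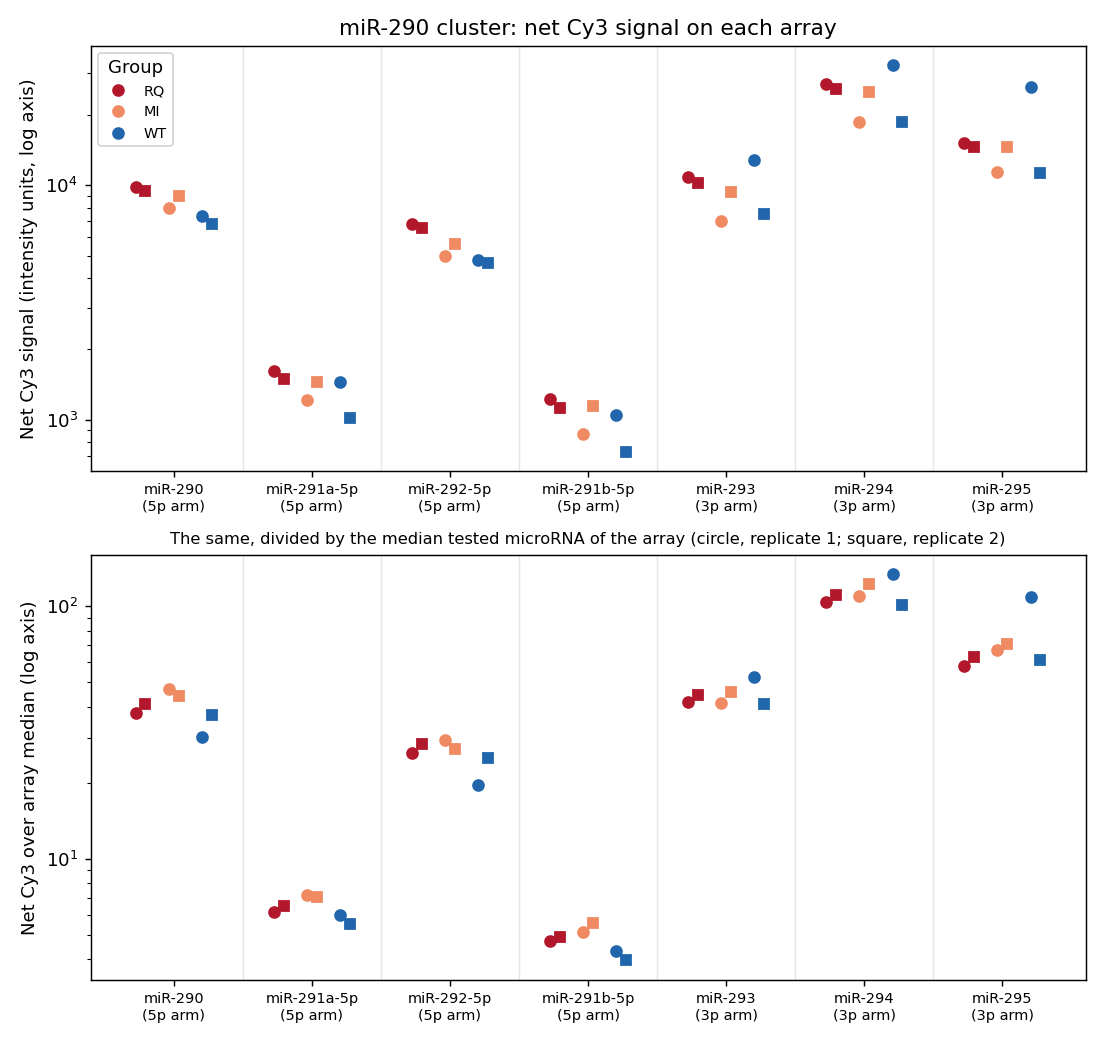
Net Cy3 signal of each member on each array (upper panel, log axis) and the same divided by the median net Cy3 signal of the tested microRNAs of that array (lower panel, log axis), with RQ, MI and WT from left to right within a member. The WT replicates lie far apart for the 3 members read on the 3p arm, and the RQ replicates lie close together for all 7.

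The spread among the WT arrays was uneven over the cluster. WT replicate 1 over WT replicate 2 was 2.34 for miR-295, 1.75 for miR-294 and 1.70 for miR-293. It was 1.43 for both miR-291a-5p and miR-291b-5p, 1.08 for miR-290 and 1.03 for miR-292-5p, where the median tested microRNA was at 1.21. In contrast, RQ replicate 1 over RQ replicate 2 ran from 1.03 to 1.09 over the 7 members, with a median tested microRNA of 1.02. MI replicate 1 over MI replicate 2 ran from 0.744 to 0.891, with a median of 0.867. Thus the difference between the WT arrays in net Cy3 signal was larger for the 3p members than for miR-290 and miR-292-5p. A comparison of the net Cy3 signal of a 3p member with WT rests on 2 values that far apart. In the loess-normalized log2 ratio, the WT arrays lay at 9.33 and 8.32 for miR-295 and at 7.97 and 7.32 for miR-293. For miR-294 they lay close together, at 9.48 and 9.42.

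The arrays also differed in brightness as a whole. The median net Cy3 signal of the tested microRNAs was 259.6 and 230.5 in RQ and 169.2 and 205.2 in MI, against 242.7 and 184.5 in WT. Negative control spots were brighter in Cy3 on the RQ arrays, at means of 93.05 and 102.8, against 43.8 and 59.4 on the MI arrays and 59.4 and 43.8 on the WT arrays. The part of that background in the results was not tested.

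Divided by its array's median, miR-290 stood at 37.9 and 40.9 in RQ and 47.0 and 44.0 in MI, against 30.5 and 37.0 in WT. miR-291a-5p stood at 6.19 and 6.49 in RQ and 7.18 and 7.06 in MI, against 5.98 and 5.50 in WT. For miR-291b-5p the values were 4.73 and 4.89 in RQ and 5.13 and 5.57 in MI, against 4.31 and 3.96 in WT. These 3 members had the order MI, RQ, WT from high to low with no overlap, which 6.46% of tested microRNAs (19 microRNAs) also showed. miR-292-5p stood at 26.2 and 28.6 in RQ and 29.5 and 27.3 in MI, against 19.7 and 25.2 in WT, where both mutants were above WT and overlapped each other.

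On that scale all 4 members read on the 5p arm, and none of the 3 read on the 3p arm, were higher in RQ than in WT without overlap, where 46.9% of tested microRNAs were. The same 4 were higher in MI than in WT without overlap, where 54.4% of tested microRNAs were. With such large shares among all microRNAs, a count of 4 of 7 is no result about the cluster. RQ was below MI without overlap for miR-290, miR-291a-5p, miR-291b-5p and miR-295, against 26.5% of tested microRNAs.

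The 3p members overlapped with WT on that scale. miR-294 stood at 103.6 and 111.0 in RQ and 110.0 and 121.9 in MI, against 133.8 and 100.7 in WT. miR-295 stood at 58.0 and 63.0 in RQ and 67.3 and 71.1 in MI, against 108.4 and 61.0 in WT. miR-293 stood at 41.6 and 44.3 in RQ and 41.5 and 45.8 in MI, against 52.6 and 40.8 in WT.

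The comparison of RQ with WT asks which microRNAs differ with the R1699Q change. With loess-normalized ratios, miR-294 and miR-295, the pair with the AAGUGCU seed, were called lower in RQ (limma, adjusted p under 0.05 over all tested probes), and the other 5 members were not called. The 2 called members are to be read against 13.9% of all tested microRNAs called lower, and 21.4% called in either direction (63 microRNAs). The members' median difference was -0.23 on the log2 scale, where that of all tested microRNAs was 0.03. Neither miR-294 nor miR-295 was called with median centring of the arrays, where 22.8% of tested microRNAs were called, or with Cy3 alone.

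The log2 ratio of miR-294 was 7.85 and 8.02 on the RQ arrays, against 9.48 and 9.42 on the WT arrays. RQ was below WT on both arrays with no overlap, which the net Cy3 signal did not show. The difference was -1.51 ± 0.20 (SE, n = 2 arrays per group, limma adjusted p = 0.00808). With median centring it was -0.36 (95% interval -0.78 to 0.05, limma adjusted p = 0.193), and with quantile-normalized Cy3 alone it was -0.24 (limma adjusted p = 0.236). The scanner's own processed signals gave -1.501 (limma adjusted p = 0.00328). Without RQ replicate 1 the loess difference was -1.43 and not called (limma adjusted p = 0.0575).

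How the 2 dyes share that difference cannot be read from the normalized signals. Loess changes only the ratio, so its shift of -1.15 is divided equally between the dyes by construction. The mean net Cy3 signal of miR-294 was 26243 in RQ, against 25517 in WT. After loess and scaling of average intensity between arrays, the mean log2 Cy3 signal of miR-294 was 14.54 in RQ, against 15.25 in WT, while its mean log2 Cy5 signal was 6.60 in RQ, against 5.80 in WT. The unscaled net Cy5 signal of miR-294 was 47.5 and 53.0 in RQ, against 46.0 and 29.3 in WT. The scanner called all these Cy5 spots well above local background, although negative control spots on the RQ arrays had net Cy5 signals of 19.4 ± 35.8 and 23.8 ± 38.6 (SD over 77 spots).

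The log2 ratio of miR-295 was 7.55 and 7.77 in RQ, against 9.33 and 8.32 in WT. RQ was again below both WT arrays, and the WT arrays lay apart, with an SD of 0.72. The difference was -1.16 ± 0.32 (SE, n = 2 arrays per group, limma adjusted p = 0.0486). It was -0.51 with median centring (limma adjusted p = 0.195) and -0.52 with Cy3 alone (limma adjusted p = 0.167). With the processed signals it was -0.94 and called (limma adjusted p = 0.026). Without WT replicate 1 the difference was -0.66, still called. Without RQ replicate 1, RQ replicate 2 or either MI array, whose spread the fit shares, it was not called. In Cy5, miR-295 was not well above background on the RQ arrays, where the lower bound on Cy3 over Cy5 after loess was 186-fold (log2 7.54). That bound depends on the scaling, as the mean log2 ratio there was 7.21 with median centring. It was well above background in Cy5 on 1 of the 2 WT arrays.

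The other 5 members were not called in RQ minus WT. miR-293 differed by -0.56 (95% interval -1.14 to 0.01, limma adjusted p = 0.138). It passed, at -0.89, only without WT replicate 2 (limma adjusted p = 0.0316). miR-290 differed by -0.23 and miR-292-5p by 0.28. miR-291a-5p differed by -0.06 (95% interval -0.42 to 0.29) and miR-291b-5p by -0.01 (95% interval -0.35 to 0.32). Of these 5, miR-293 and miR-291a-5p kept a negative sign under loess, median centring, Cy3 alone and the processed signals, and the signs of miR-290, miR-292-5p and miR-291b-5p each turned under at least 1 of them.

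**Figure D3:**
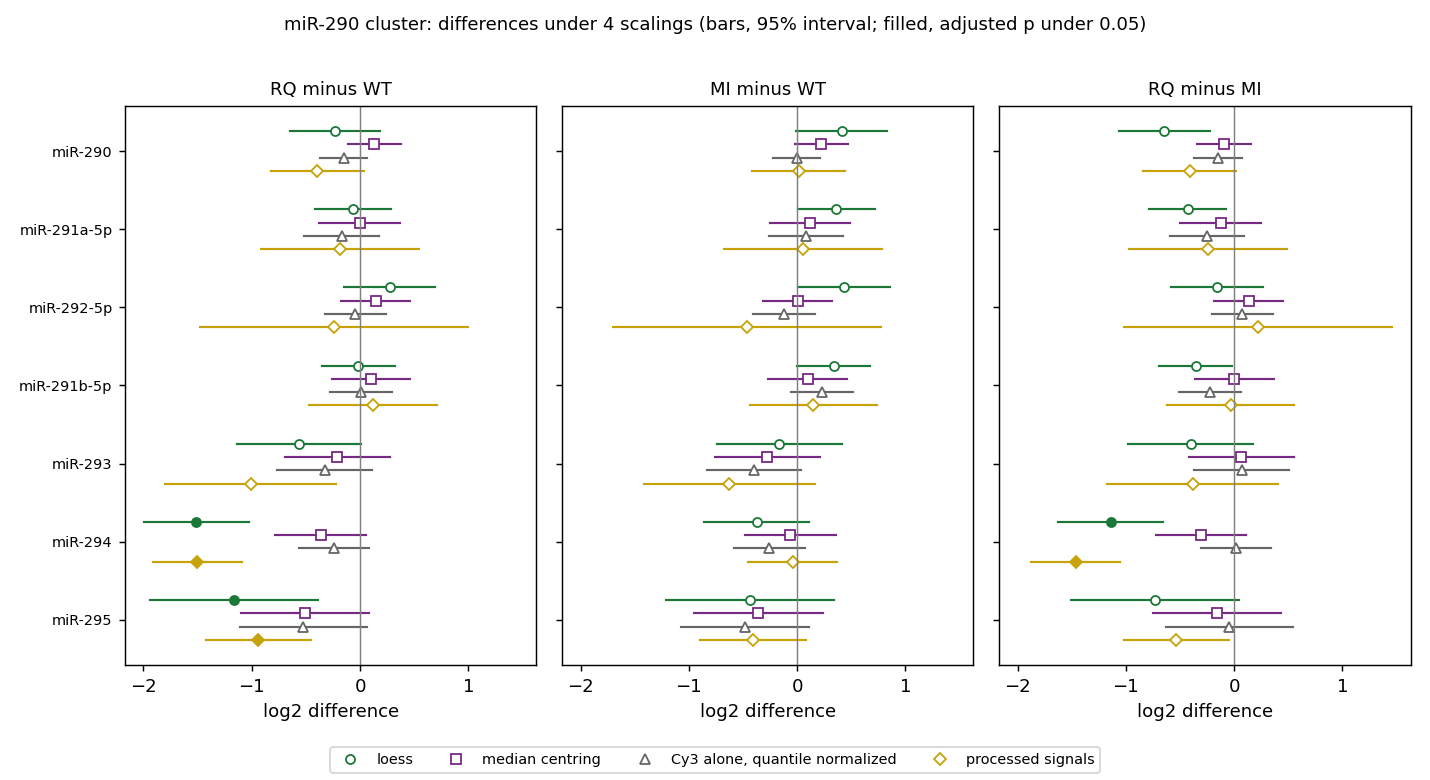
Difference between groups (log2) of each member under 4 scalings, for RQ minus WT, MI minus WT and RQ minus MI. Points are limma estimates, bars are 95% intervals, and filled points have an adjusted p under 0.05. miR-294 in RQ minus WT lies at -1.51 with loess and -1.501 with the processed signals, and at -0.36 with median centring and -0.24 with Cy3 alone.

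The step from median centring to loess moved the members by different amounts. In RQ minus WT, loess moved miR-294 by -1.15, at an average log2 intensity of 10.5 over both dyes. It moved miR-295 by -0.65 at 9.97, miR-290 by -0.36 at 9.82 and miR-293 by -0.35 at 9.72. miR-292-5p, at 9.36, was moved by 0.13. The dimmer miR-291a-5p and miR-291b-5p were moved by -0.06 and -0.12. The members that loess called lower were thus those that it moved most.

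**Figure D4:**
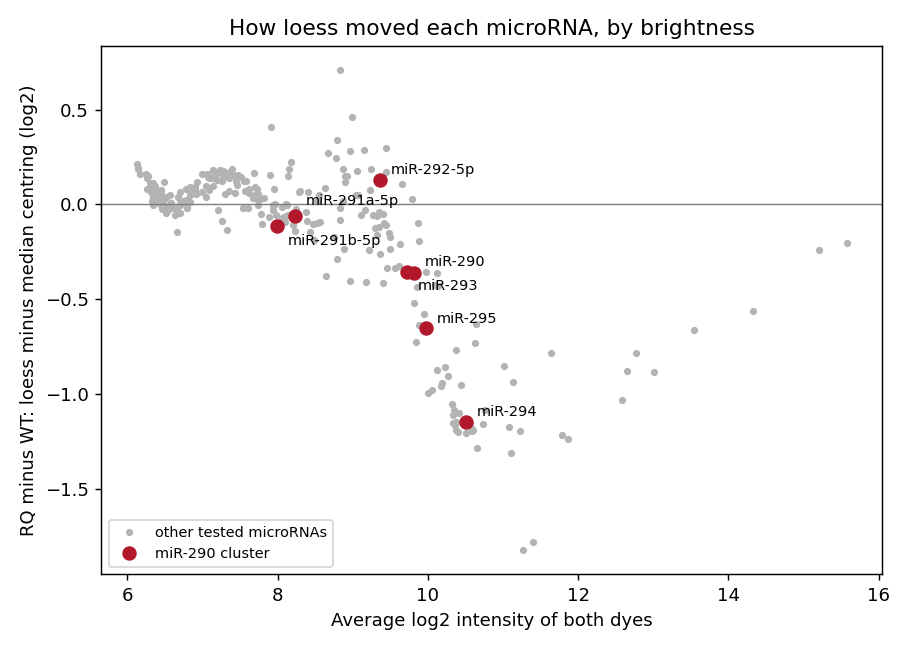
RQ minus WT difference with loess minus that with median centring (log2), against the average log2 intensity of both dyes, for the tested microRNAs with the 7 members marked. miR-294, the brightest member, lies at -1.15 and the 2 dimmest members lie near 0.

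The comparison of MI with WT asks the same of the M1652I change. None of the 7 members was called with loess (limma), where 15.6% of all tested microRNAs were (46 microRNAs) and 108 had an unadjusted p under 0.05. The members' median difference was 0.34, where that of all tested microRNAs was 0.11, and with median centring the values were 0.01 and 0.08. With median centring too, no member was called (12.9% of tested microRNAs were). The 4 members read on the 5p arm had positive differences and the 3 read on the 3p arm negative ones.

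In the log2 ratio, miR-292-5p had 6.63 and 6.60 in MI, against 6.03 and 6.33 in WT, with no overlap. Its difference was 0.43 (95% interval 0.01 to 0.86, limma adjusted p = 0.128). miR-290 had 7.24 and 7.21 in MI, against 6.63 and 6.99 in WT, a difference of 0.41 (limma adjusted p = 0.142). miR-291a-5p differed by 0.36 (limma adjusted p = 0.128) and miR-291b-5p by 0.34 (limma adjusted p = 0.135). All of these but miR-290 had an unadjusted p under 0.05 in that fit. With median centring these 4 differences were smaller, at 0.22 for miR-290, 0.12 for miR-291a-5p, 0.10 for miR-291b-5p and 0.01 for miR-292-5p.

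The 3p members lay below WT in MI without passing the test. miR-293 differed by -0.16 (95% interval -0.74 to 0.41), miR-294 by -0.37 (95% interval -0.86 to 0.11) and miR-295 by -0.43 (95% interval -1.21 to 0.34). miR-294 had a log2 ratio of 8.79 and 9.36 in MI, against 9.48 and 9.42 in WT. Without WT replicate 2, miR-295 was called lower in MI, at -0.94 (limma adjusted p = 0.016). Without WT replicate 1 its difference was 0.08, so its direction against WT was set by which WT array was kept.

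RQ and MI lay in 1 row of the slide, MI in columns 1 and 2 and RQ in columns 3 and 4. Slide column and the difference of RQ from MI therefore cannot be told apart. WT arrays lay alone in the other row, so slide row and the difference of each mutant from WT cannot be told apart. In RQ minus MI, miR-294 was called lower, at -1.14 ± 0.20 (SE, n = 2 arrays per group, limma adjusted p = 0.0305), and the other 6 members were not called. That is 1 of 7, where 7.82% of all tested microRNAs were called lower and 10.9% in either direction (32 microRNAs).

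The direction of miR-294 in RQ minus MI depended on the scaling. With median centring, where 10.5% of tested microRNAs were called, it was -0.30 (limma adjusted p = 0.335), and with Cy3 alone 0.02 (limma adjusted p = 0.951). The processed signals gave -1.46, which was called (limma adjusted p = 0.00524). Its net Cy5 signal was 47.5 and 53.0 in RQ, against 30.2 and 33.5 in MI, while its mean net Cy3 signal was 26243 in RQ, against 21818 in MI. Without any 1 of the 4 RQ and MI arrays it was not called. The differences of the others with loess were -0.73 for miR-295, -0.64 for miR-290, -0.43 for miR-291a-5p, -0.40 for miR-293, -0.35 for miR-291b-5p and -0.16 for miR-292-5p. Of these, miR-290 had a limma adjusted p of 0.0763. The median of the 7 was -0.43, where that of all tested microRNAs was -0.10, and with median centring the values were -0.09 and 0.06.

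As a description of the channel difference, all 7 members were called in the WT ratio of Cy3 over Cy5, where 45.9% of tested microRNAs were called higher in Cy3 (135 microRNAs). miR-294, at a log2 ratio of 9.45, and miR-290, at 6.81, were well above background in Cy5 on both WT arrays. miR-295, with a ratio of 8.82, miR-293, with 7.64, and miR-292-5p, with 6.18, were so on 1 of the 2. miR-291a-5p and miR-291b-5p were not well above background in Cy5 on any array, so their ratios of 3.89 and 3.54 have background as the denominator. Without a dye swap all these ratios are open to dye bias.

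The residual Cy5 signal of a member was a small share of its Cy3 signal. It was 0.0985% to 0.173% for miR-295, 0.134% to 0.207% for miR-294 and 0.217% to 0.359% for miR-293. For miR-290 it was 0.505% to 0.715%, for miR-292-5p 0.399% to 0.855%, for miR-291a-5p 0.972% to 1.44% and for miR-291b-5p 1.00% to 1.90%. Over the 6 arrays, net Cy5 and net Cy3 correlated at 0.788 for miR-295 and 0.735 for miR-294, and at 0.0606 for miR-292-5p; both dyes share the spot and the array.

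In their log2 ratios, the members did not move as 1 unit over the arrays. Cy5 signals near background enter those ratios, and Cy3 alone was not tested for this. Over the 21 pairs of members, log2 ratios correlated between -0.49 and 0.98 over the 6 arrays, with a median of 0.36. Under median centring the range was -0.56 to 0.93 and the median 0.41. Pearson's r with the mean centred profile of the members was highest, under loess, for miR-186 (0.929), miR-27a (0.898), miR-24 (0.890) and miR-148b (0.884). Under median centring it was highest for miR-350 (0.917), miR-495 (0.819), miR-376c (0.792) and miR-21 (0.766). Each r is over 6 arrays that share 1 Cy5 label and the scaling, and the 2 scalings name different microRNAs.

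The cluster of miR-302 and miR-367 is the other microRNA cluster of pluripotent cells, and its miR-302d carries the same AAGUGCU seed as miR-294 and miR-295. The RefSeq sequence of miR-302d (GRCm38.p6) is shown for its seed, in capitals.
mmu-miR-302d: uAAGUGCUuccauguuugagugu
Of the 4 tested members of that cluster, 3 fell in MI against WT, with log2 differences of -1.79 for miR-302, -1.61 for miR-302d and -0.79 for miR-367, where 6.46% of all tested microRNAs were called lower. The net Cy3 signal of miR-302d was 1290.5 and 1366 in RQ and 352.8 and 375.3 in MI, against 1628 and 1290 in WT. Both MI arrays were far below the others. In RQ minus MI all 4 rose with loess, where 3.06% of all tested microRNAs were called higher. Their median difference was 0.98, against -0.10 over all tested microRNAs. Of the 5 probes of that cluster on the arrays, 4 were above background in Cy5 on no array. The ratios of those 4 probes have background as the denominator. With loess, in RQ minus WT only miR-302d was called, at -0.54. The starred arm miR-302c*, at 378.2 and 338.2 net Cy3 units in RQ and 37.1 and 49.975 in MI, against 54.2 and 40.9 in WT, was also brighter in Cy5 on the RQ arrays, at 84.8 and 95.5. In MI and WT its net Cy3 signal was below the mean of the negative control spots of the same array. Its rise over MI and that of miR-302 were not called with the processed signals. All calls of miR-302d were kept under the 3 other scalings.

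**Figure D5:**
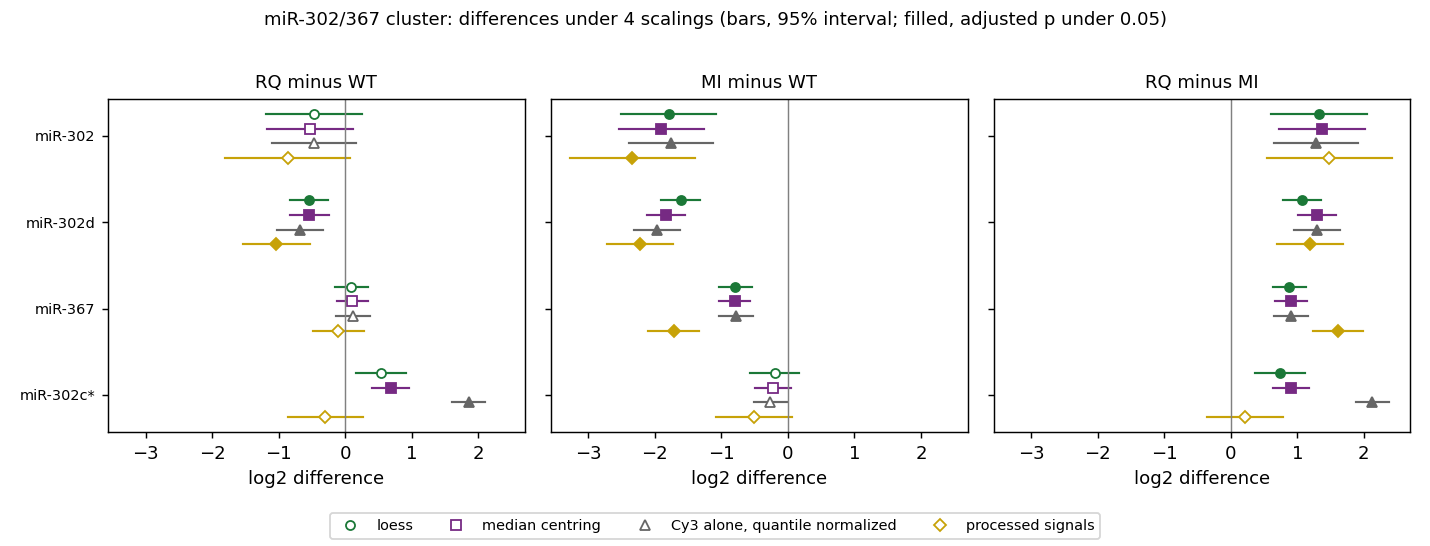
Difference between groups (log2) of the 4 tested members of the cluster of miR-302 and miR-367 under 4 scalings, with 95% intervals; filled points have an adjusted p under 0.05. The MI minus WT differences of miR-302, miR-302d and miR-367 lie below 0 under all 4 scalings, from -0.78 to -2.34.

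The miR-290 members thus gave no call in the comparison in which miR-302, miR-302d and miR-367 fell. The MI minus WT difference of miR-294 was -0.37 and that of miR-302d, with the same seed, -1.61. A difference between the 2 was not tested. The more distant relatives, miR-17-5p, miR-20a, miR-20b, miR-93, miR-106a and miR-106b, hold AAGUGC shifted by 1 base from the 5′ end and are common in proliferating cells. Of the 8 tested microRNAs listed as AAGUGC relatives, 2 fell in RQ against WT (miR-302d and miR-17-5p), where 13.9% of all tested microRNAs were called lower, and 3 fell in MI (miR-302, miR-302d and miR-17-5p), where 6.46% were. With median centring 1 and 2 were called lower, where 22.8% and 12.9% of all tested microRNAs were called in either direction. miR-17-5p was at -0.65 in RQ and -0.46 in MI with loess, and at 0.31 and -0.14 with median centring, where neither was called.

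The let-7 family, whose mature members accumulate as stem cells differentiate, had a higher net Cy3 sum in RQ than in WT, as did several marker lists. Its 9 members summed to a net Cy3 signal of 6090 to 6387 in RQ, 3087 to 3679 in MI and 2787 to 2945 in WT. With loess 3 of 9 were called lower in RQ against WT, where 13.9% of all tested microRNAs were, namely let-7a (-1.02), let-7f (-0.92) and let-7g (-0.85), and none in MI against WT (limma). With median centring those 3 were at 0.16, 0.01 and 0.09 and not called, and 3 other members were called higher (22.8% of all tested microRNAs were called in either direction). The 7 feeder and mesenchyme markers, all above background in Cy3 on every array, summed to 4202 to 4562 in RQ, 2766 to 3540 in MI and 2189 to 3266 in WT. The 4 neural markers summed to 1508 to 1618 in RQ, against 1001 to 1037 in WT. The 3 muscle markers summed to 2340 to 3245.5, against 1160 to 1180. The 4 endoderm and liver markers, of which 2 were above background in Cy3 on no array, summed to 773.5 to 776.8, against 417.4 to 442.7. The 6 Sfmbt2 repeat markers overlapped, at 3372 to 3442 in RQ and 2904 to 3593 in WT. The part of any of these lists in the differences of the miR-290 members was not tested.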

How the data were processed

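MicroRNAs were measured on 6 two-colour Agilent arrays on 1 slide with 1 scan. Per the file headers, the deposited Agilent Feature Extraction 9.5.1.1 files give spot and local background intensity on a linear scale. The deposited log10 ratio of Cy5 over Cy3 is of processed intensity, per the file headers, and the authors' deposited value table is minus that log10 ratio, with a largest difference of 0 and column medians of 0. Background was removed by normexp with an offset of 50, and dyes were balanced on each array by loess, with control and outlier spots at weight 0, in limma 3.58.1 under R 4.3.3. Outlier spots (60 to 99 per array) were left out and the 4 spots of a probe averaged on the log2 scale. Probes entered the test if more than 0.5 of the spots exceeded background in 1 dye or the other on at least 2 arrays, which left out 40 of 334. limma's lmFit and eBayes ran on all 6 arrays (3 residual and 2.99 prior degrees of freedom), with Benjamini-Hochberg adjustment over the tested probes. The number of arrays limits the precision. The fit was tested on simulated data. Where a probe was not above background in Cy5, a bound used the lowest signal well above background. Net signals over the array median are descriptions, added after seeing the data.

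The text names all members, the 4 non-members most like their mean profile under loess and under median centring, and up to 3 called members of each of 3 lists (AAGUGC relatives, miR-302 and miR-367 cluster, let-7). let-7 members given with it, relatives listed by seed and marker sums are further names. Members and lists were chosen with earlier results of these data known. Replicate arrays correlated at 0.994 in RQ, 0.993 in MI and 0.987 in WT. Deviations from the group means correlated between same-numbered arrays at 0.0406 (RQ and MI), 0.119 (RQ and WT) and 0.182 (MI and WT). The labels give no shared batch, so the numbers were not taken as pairs.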

Additional observations from a re-analysis of the deposited data

How the results depend on the processing

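The 7 calls of members in the WT ratio of Cy3 over Cy5 held under every alternative run, and the miR-290 cluster's calls between groups did not. In RQ minus WT, 2 members were called, and 0 with median centring (67 of all microRNAs) or Cy3 alone. Loess on bright probes, a normexp offset of 16, no filter on dim probes or only the groups compared gave 1 member. Where no number for all microRNAs stands beside it, a member count is no result about the cluster. Leaving out 1 array gave 0 to 3 members and 5 to 60 of all microRNAs (63 in the full fit). In MI minus WT, leaving out 1 array gave 0 to 1 members and 6 to 63 of all microRNAs (46 in the full fit), which numbered 73 with background subtracted and 27 with only the groups compared. In RQ minus MI, 1 member was called, and 0 with median centring (31 of all microRNAs), loess on bright probes or Cy3 alone. With only the groups compared, 3 were called. Leaving out 1 array gave 0 to 3 members and 0 to 48 of all microRNAs (32 in the full fit), which numbered 10 with loess on bright probes and 14 with outlier spots kept. The cause of these changes was not tested.

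The replicate numbers did not pair the samples. With the replicate number as a block, 1 member was called in RQ minus WT, among 59 of all tested microRNAs, and 2 in RQ minus MI, among 38 (limma).

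Signs turned in 32 cases, of which miR-294 in RQ minus MI (0.018 with Cy3 alone) was called with loess and the others were not. With Cy3 alone, RQ minus WT was -0.043 for miR-292-5p and 0.0061 for miR-291b-5p, MI minus WT was -0.12 for miR-292-5p and -0.0048 for miR-290, and RQ minus MI was 0.078 for miR-292-5p and 0.069 for miR-293. With median centring, RQ minus WT was 0.13 for miR-290 and 0.10 for miR-291b-5p, and RQ minus MI was 0.14 for miR-292-5p, 0.067 for miR-293 and 0.0039 for miR-291b-5p. With the processed signals and the value table, miR-292-5p was at -0.24 and -0.24 in RQ minus WT, -0.46 and -0.47 in MI minus WT, and 0.22 and 0.22 in RQ minus MI, and miR-291b-5p was at 0.12 and 0.12 in RQ minus WT. With background subtracted, miR-290 was at 0.074 in RQ minus WT, miR-291b-5p at -0.13 in MI minus WT and miR-292-5p at 0.11 in RQ minus MI. With offset 16, miR-291b-5p was at 0.047 in RQ minus WT and miR-292-5p at 0.052 in RQ minus MI. Leaving out 1 array gave -0.23 to 0.10 for miR-291a-5p and -0.13 to 0.10 for miR-291b-5p in RQ minus WT, -0.94 to 0.076 for miR-295 and -0.49 to 0.16 for miR-293 in MI minus WT, and -0.35 to 0.030 for miR-292-5p in RQ minus MI. Signal over background in Cy5 limits every ratio of a member.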
